A study of Homo sapiens with 12 samples.

Results

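The comparison asks what a higher dose of a RAF inhibitor added to a lower one, 1000 nM against 250 nM of PLX4032, in melanoma cells exposed for 8 h. It uses 4 of the 12 arrays of the series, chosen by their labelled dose and cell line: 2 arrays at 1000 nM and 2 at 250 nM, 1 per dose from SkMel-19 and 1 per dose from Malme3M. The groups are SkMel-19 and Malme3M cells with PLX4032 at 1000 nM and the same lines with PLX4032 at 250 nM, all in serum-containing medium. The 2 arrays of these lines treated with 0.1% DMSO, the vehicle, are in neither arm and are quoted only to place each gene's level. All 5 lines of the series carry the BRAF V600E mutation, so no array comes from a line without it. Each line is a single culture per dose in the labels, and the other 6 arrays, DMSO and 250 nM of SkMel-1, SkMel-5 and SkMel-28, hold no 1000 nM sample. With 1 array per line and dose, a difference within a line has no replicate check and carries no p-value, and the dose effect in 1 line could not be tested against that in the other.

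BRAF V600E is a constitutively active kinase that drives MEK and then ERK, and PLX4032 (vemurafenib) blocks it. ERK raises the transcription of growth genes and of its own inhibitors, the DUSP phosphatases and the Sprouty proteins, so their RNA follows ERK output within hours. ERK output in melanoma cells also sets the level of cyclin D1 and MYC and holds down genes of the differentiated melanocyte, a pigment cell.

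Expression is given as array signal in linear intensity units on the scale the authors deposited, and differences as log2(signal + 12). A gene's step is its 1000 nM value minus its 250 nM value. A gene was said to rise or fall in a line when the step reached 1.5-fold, and a signal under 85.7, the level used to filter genes, was read as at the floor of the array. The 4 arrays had median signals between 103.1 and 130.4 and ratios of 3' to 5' GAPDH signal between 0.92 and 0.94. All 6 melanocyte markers with a probe set were above the floor on every array of both lines, whereas of 6 blood and endothelial markers none was above it in SkMel-19 and 1 in Malme3M. Of 8 fibroblast markers 2 were above it in SkMel-19 and 4 in Malme3M, and of 6 keratinocyte markers 2 in each line, one of them KRT10 with signals of 1993 to 2985.

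The step from 250 to 1000 nM was small for nearly every gene. Of 7178 genes tested, 6919 (96.4%) differed by under 1.5-fold between the doses in both lines. In SkMel-19, 80 genes (1.11%) rose and 41 (0.571%) fell, and in Malme3M 53 (0.738%) rose and 111 (1.55%) fell. The SD of the step across genes was 0.20 in SkMel-19 and 0.22 in Malme3M. For scale, 250 nM against DMSO gave an SD across genes of 0.46 in SkMel-19 and 0.57 in Malme3M, with 1026 and 1368 genes past 1.5-fold, 14.3% and 19.1% of those tested. That contrast shares the 250 nM arrays with the step. Median step over all genes was -0.02 in SkMel-19 and -0.01 in Malme3M.

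**Figure D1:**
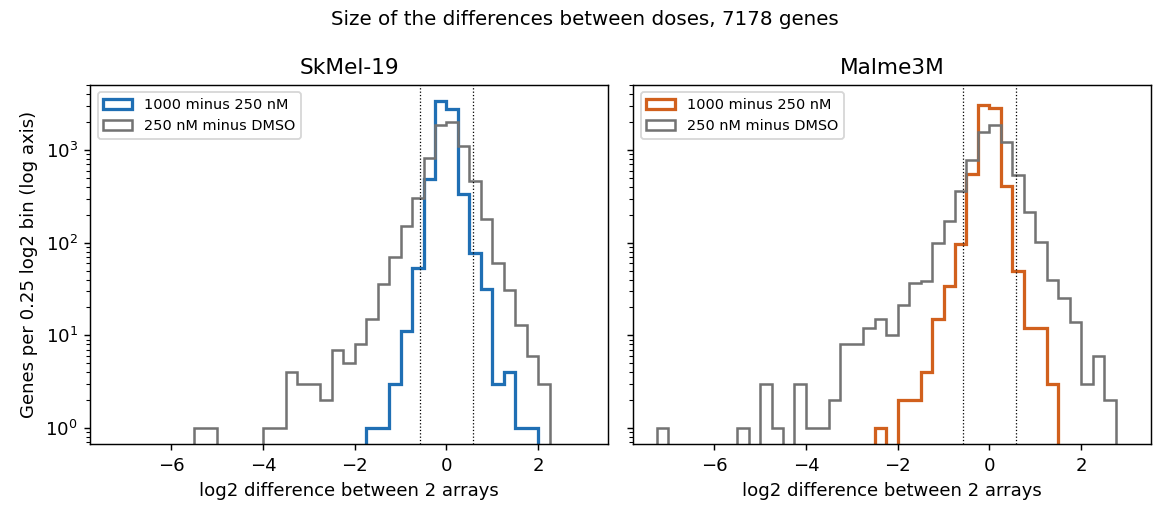
Histograms of the log2 difference of 7178 genes in each line, 1000 minus 250 nM (coloured) and 250 nM minus DMSO (grey), with the number of genes on a log axis and dotted lines at 1.5-fold. The step has an SD of 0.20 in SkMel-19 and 0.22 in Malme3M, and the grey curves reach much further to the left.

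No gene passed the test over both lines. A limma fit with cell line as a block, 1000 against 250 nM, called 0 of 7178 genes (0%) at a Benjamini-Hochberg adjusted p of 0.05. It left 75 genes at an unadjusted p under 0.05 and a smallest adjusted p of 0.999. Its error also holds the lines' unlike responses against DMSO, so it is not the spread of the step alone. SLC20A1, with steps of -0.15 in SkMel-19 and -0.23 in Malme3M, had an SE of 0.47. With only the 4 arrays at 1000 and 250 nM, limma called 0 genes and 218 had an unadjusted p under 0.05. A count of 0 here does not show that the dose had no effect. Only 4 genes (0.0557%) rose past 1.5-fold in both lines and 1 (0.0139%) fell in both. Across genes the steps of the 2 lines had a Pearson r of -0.15 and a Spearman rho of -0.07, a description over genes that are not independent of each other.

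To ask whether genes that answer to PLX4032 had already stopped moving at 250 nM, responders were taken from the lines outside the contrast. In SkMel-1, SkMel-5 and SkMel-28, 84 of the tested genes were lower at 250 nM than in DMSO by at least 1.5-fold in each line and 2-fold on average, and 33 were higher by the same rule. No array of this choice enters the step. The 84 had a median of -1.25 at 250 nM against DMSO in SkMel-19, and -1.34 at 1000 nM against the same DMSO array. In Malme3M the medians were -1.99 at 250 nM and -1.99 at 1000 nM. Their median step was -0.00 in SkMel-19 and -0.08 in Malme3M, beside -0.02 and -0.01 over all genes.

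None of the 33 genes that 250 nM raised in the other lines rose or fell past 1.5-fold between the doses, a share near the background, since 1.69% of all genes did so in SkMel-19 and 2.28% in Malme3M. Their steps ran from -0.24 to 0.51 in SkMel-19 and from -0.29 to 0.36 in Malme3M. Their median difference from DMSO was 1.02 at 250 nM and 1.29 at 1000 nM in SkMel-19, and 1.57 at 250 nM and 1.56 at 1000 nM in Malme3M. The median step gene by gene was smaller than the SkMel-19 medians convey. It was 0.02 in SkMel-19, with 19 steps above 0 and 14 below, and -0.01 in Malme3M, with 16 above and 17 below.

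Of the 84 lowered genes, 73 were under 1.5-fold in both lines, a smaller share than the 96.4% of all genes. In SkMel-19, 5 of 84 rose (5.95%, against 1.11% of all genes), LONRF3, EPHA2, EEF2KMT, NR4A3 and SLC2A3, and 1 fell, PMEPA1 (1.19%, against 0.571%). In Malme3M, 7 of 84 fell (8.33%, against 1.55% of all genes), NR4A3, SLC2A3, CREB5, SPRY4, DUSP4, EPHA2 and SPRY2, and 3 rose (3.57%, against 0.738%), LONRF3, JUN and EEF2KMT. These movers lay mostly at the bottom of the signal range. A signal under the floor at one of the doses was found for 4 of the 5 that rose in SkMel-19 and for 5 of the 7 that fell in Malme3M. Of all 84, 24 were under the floor at 250 nM in SkMel-19 and 23 in Malme3M, where differences between 2 low signals are included in these counts but are not read as an order of the doses.

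**Figure D2:**
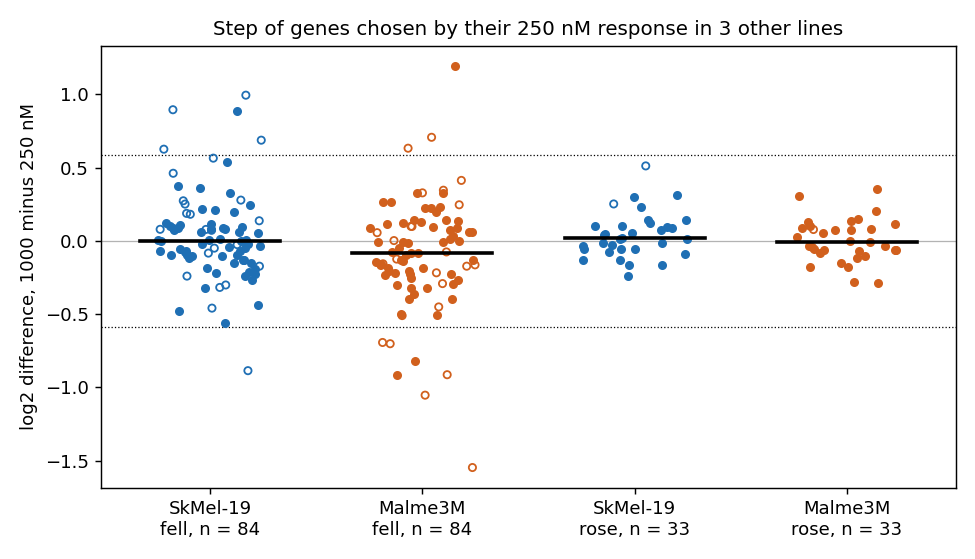
Step, 1000 minus 250 nM on the log2 scale, of the 84 genes lowered and the 33 genes raised by 250 nM in 3 other lines, 1 point per gene, shown for SkMel-19 and Malme3M. Black bars are medians, dotted lines mark 1.5-fold and open points have a signal under 85.7 at 1 of the doses; the 33 raised genes all lie between the dotted lines.

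About as many ERK feedback inhibitors were under the floor of the array at 250 nM as were above it. DUSP6, the phosphatase that acts on ERK itself, had a signal of 1067 in DMSO, 12.2 at 250 nM and 16.8 at 1000 nM in SkMel-19, and 5927, 31.5 and 25.4 in Malme3M. Both doses lie under the floor in both lines, so the DUSP6 signals do not order them. SPRY2, which restrains receptor signalling to RAS, had 2012 in DMSO, 49.3 at 250 nM and 72.4 at 1000 nM in SkMel-19, and 1408, 32.8 and 15.7 in Malme3M. SPRY4, a relative of SPRY2, had 604, 64.3 and 60 in SkMel-19 and 565, 73.9 and 33.6 in Malme3M at the same 3 settings.

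Of the 10 measured ERK feedback inhibitors, 5 in SkMel-19 and 6 in Malme3M were under the floor at 250 nM, while others, such as DUSP4 and SPRED2, stood well above it in both lines. Their median step was 0.06 in SkMel-19 and -0.29 in Malme3M. In SkMel-19 1 of the 10 rose, RGS2, at 38.5 at 1000 nM and 17.4 at 250 nM, both under the floor. In Malme3M 3 of the 10 passed 1.5-fold downwards, but SPRY4 and SPRY2 were under the floor at both doses, so their signals do not order the doses either. The third was DUSP4, a nuclear phosphatase of ERK and related kinases, with a step of -0.82 and signals of 6069 in DMSO, 640 at 250 nM and 357 at 1000 nM. A second probe set of DUSP4 gave 288 at 1000 nM and 338 at 250 nM in Malme3M, a step of -0.22, so its fall past 1.5-fold rests on 1 of its 2 probe sets. In SkMel-19 DUSP4 had 4123 in DMSO, 887 at 250 nM and 1144 at 1000 nM, so there the higher dose did not give the lower signal.

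Several of ERK's growth outputs were above the floor at 250 nM and still differed little between the doses. CCND1, which encodes cyclin D1, had a signal of 2091 in DMSO, 185 at 250 nM and 217 at 1000 nM in SkMel-19, and 3332, 132 and 131 in Malme3M. MYC, a growth transcription factor, had 2444, 336 and 357 in SkMel-19 and 1559, 259 and 234 in Malme3M. ETV5, an ETS factor induced by ERK, had 3632, 263 and 306 in SkMel-19 and 4191, 375 and 302 in Malme3M. On the brightest probe sets of these genes the plateau was a level between 131 and 375, above the floor. Dimmer probe sets of CCND1 and ETV5 lay nearer to it, with steps under 1.5-fold. A second probe set of CCND1 had 85 at 250 nM and 129 at 1000 nM in SkMel-19, a step of 0.54, and 86.4 and 91.4 in Malme3M. Other probe sets of ETV5 had steps of 0.54 and -0.31 in SkMel-19, the former from 72.5 to 111, and -0.22 and -0.27 in Malme3M.

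Of the 13 measured ETS and growth outputs, 4 in each line were under the floor at 250 nM. The largest step above the floor at both doses in SkMel-19 was that of TNFRSF12A, a TNF receptor family member, with 214 at 1000 nM and 143 at 250 nM. Over the 13 the median difference from DMSO was -2.34 at 250 nM and -2.17 at 1000 nM in SkMel-19, and -2.53 and -2.62 in Malme3M. Their steps leaned opposite ways, with 10 of 13 above 0 in SkMel-19 (median 0.14) and 10 of 13 below 0 in Malme3M (median -0.16). EPHA2, a receptor kinase, was the only member past 1.5-fold, higher at 1000 nM in SkMel-19 and lower in Malme3M, with all 4 signals under the floor.

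Immediate early factors had small median steps, 0.01 in SkMel-19 and -0.06 in Malme3M, with exceptions at low signal. FOSL1, an AP-1 subunit, had 869 in DMSO, 68.7 at 250 nM and 79.9 at 1000 nM in SkMel-19, and 509, 33.6 and 35.4 in Malme3M. Both doses lie under the floor in both lines, so the FOSL1 signals do not order them. Of 19 measured members, 1 rose in SkMel-19, the orphan receptor NR4A3, and in Malme3M 2 rose, JUN and KLF4, while NR4A3 fell. JUN had 35.5 at 1000 nM and 17.1 at 250 nM in Malme3M, both under the floor. A second probe set of NR4A3 had the opposite sign in both lines, -0.69 in SkMel-19 and 0.59 in Malme3M.

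**Figure D3:**
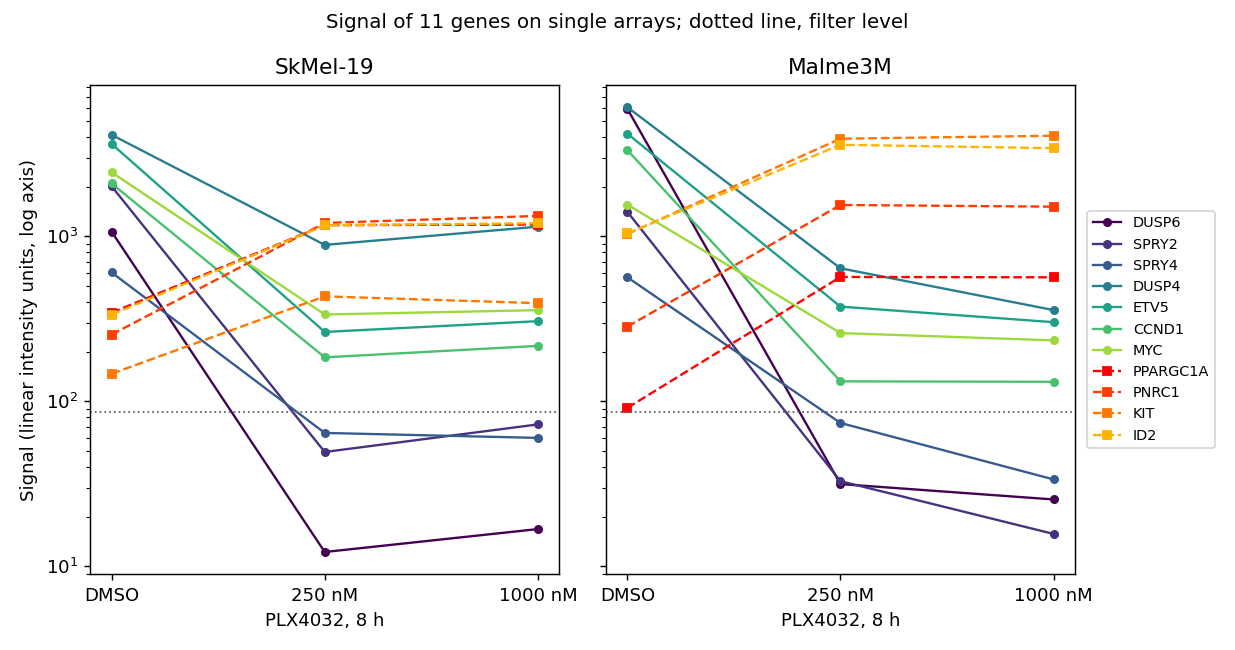
Array signal of 11 genes (log axis) in DMSO and at 250 and 1000 nM PLX4032 in each line, 1 array per point, with a dotted line at the floor of 85.7. Solid lines are genes lower than DMSO at 250 nM and dashed lines genes higher than DMSO; DUSP6 stands at 12.2 and 16.8 in SkMel-19, and PPARGC1A at 1169 and 1179.

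Several genes raised by the drug were as flat between the doses, but not all were. ASNS in Malme3M, described below, had 899 in DMSO, 2020 at 250 nM and 4102 at 1000 nM. PPARGC1A, a coactivator of mitochondrial genes that MITF can induce, had 345 in DMSO, 1169 at 250 nM and 1179 at 1000 nM in SkMel-19, and 91.2, 568 and 564 in Malme3M. PNRC1, a nuclear receptor coactivator, had 254, 1206 and 1330 in SkMel-19 and 284, 1550 and 1514 in Malme3M. KIT, the receptor for stem cell factor, had 147, 433 and 394 in SkMel-19 and 1034, 3908 and 4074 in Malme3M. Each of these 3 genes had steps between -0.13 and 0.14.

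Cell cycle exit genes and melanocyte genes had small median steps, like genes at large. Of 19 cell cycle inhibitors and quiescence genes none passed 1.5-fold in either line, near the background of 96.4% of genes under it in both, with median differences from DMSO of 0.51 at 250 nM and 0.55 at 1000 nM in SkMel-19 and 0.62 and 0.61 in Malme3M. ID2, which holds back differentiation factors by binding their partners, had 1201 at 1000 nM and 1167 at 250 nM in SkMel-19, and 3423 at 1000 nM and 3591 at 250 nM in Malme3M. Of 24 melanocyte lineage and pigment genes, 1 passed: PAX3, a lineage transcription factor, fell in Malme3M to 44.4 at 1000 nM, under the floor, against 97.1 at 250 nM. Its second probe set gave 58.6 and 79.6, a step of -0.38 and under 1.5-fold, so this call rests on 1 probe set. MITF, the master regulator of the lineage, had 6068 at 1000 nM and 5618 at 250 nM in SkMel-19, and 6357 and 6928 in Malme3M. MC1R, the melanocortin receptor, was a lineage gene that 250 nM lowered, with 935 in DMSO, 155 at 250 nM and 146 at 1000 nM in SkMel-19, and 2076, 258 and 312 in Malme3M.

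Ribosome assembly genes stood below DMSO at both doses in each line, with little step between the doses. The 27 measured genes had median differences from DMSO of -0.89 at 250 nM and -0.87 at 1000 nM in SkMel-19, and -0.66 and -0.76 in Malme3M, and none passed 1.5-fold between the doses. DDX21, a nucleolar helicase, had 2008 at 1000 nM and 2178 at 250 nM in SkMel-19, and 731 at 1000 nM and 857 at 250 nM in Malme3M. Past 1.5-fold were 0 of 37 G1/S genes and 0 of 38 G2/M genes, close to what the 96.4% of all genes under it would give. UBE2C, a ubiquitin ligase partner used in mitosis, had 3660 at 1000 nM and 3052 at 250 nM in SkMel-19, and 3561 and 3389 in Malme3M.

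Of the 34 gene lists, 17 had no member past 1.5-fold in either line, which is common for short lists when 96.4% of all genes are under it. Besides those named above, these were the components of the RAS-RAF-MEK-ERK chain (12 genes), neural crest factors (9), heat shock proteins (16), xenobiotic response (5), cholesterol synthesis (16), the respiratory chain (31), cytosolic ribosomal proteins (20), the BCL2 family (17), cytoskeleton and adhesion (26), fibroblast (3), keratinocyte (4) and blood (1) markers and reference genes (9). Apart from the ATF4 list, the others held 1 to 4 genes past 1.5-fold. MDM2, the p53 ubiquitin ligase, rose in SkMel-19 to 137 at 1000 nM, against 66.4 at 250 nM, which is under the floor. DDR2, a collagen receptor kinase, fell in Malme3M to 159 at 1000 nM, against 349 at 250 nM.

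The ATF4 list held the most movers of the 34 lists, all of them in Malme3M. ATF4 is a transcription factor whose protein is made when translation is slowed by kinases that sense amino acid shortage, unfolded proteins or other stress, and it induces genes of amino acid synthesis, uptake and tRNA charging. In Malme3M, 10 of the 22 measured ATF4 list members rose past 1.5-fold (45.5%, against 0.738% of all genes), none fell, and 21 of 22 had a step above 0. In SkMel-19 none of the 22 rose or fell and 4 had a step above 0. The list's median step was 0.51 in Malme3M and -0.10 in SkMel-19. The difference between the lines could not be tested with 1 array per line and dose.

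Promoter stretches that hold the ATF4 motif before the gene start are shown here, since 10 ATF4 list members rose in Malme3M. Of the 5 genes shown, ASNS, CHAC1 and ATF3 are ATF4 list members. AARS1 and IARS1 come from the list of amino acid transporters and tRNA synthetases. In Malme3M ASNS and CHAC1 rose past 1.5-fold and ATF3, AARS1 and IARS1 did not. The motif searched was TGATGNAA on both strands, the sequence that ATF4 binds with C/EBP partners, in RefSeq promoters from 250 bases before to 50 after the gene start. It was found in 3 of the 19 matched ATF4 list promoters (15.8%), in 7 of 19 matched promoters of amino acid transporters and tRNA synthetases (36.8%) and in 1003 of all 27305 promoters (3.67%). Of the 10 that rose in Malme3M, 2 held it (20%). Matches that ran past the gene start were counted but are not printed, so fewer stretches are shown than promoters counted. Capitals mark the motif, read 5′ to 3′ on the gene's strand, where it appears directly in ASNS and ATF3 and as its reverse complement in the other 3.
ASNS: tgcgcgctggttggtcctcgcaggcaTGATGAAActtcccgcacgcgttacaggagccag
CHAC1: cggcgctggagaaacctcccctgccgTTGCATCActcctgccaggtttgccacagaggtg
ATF3: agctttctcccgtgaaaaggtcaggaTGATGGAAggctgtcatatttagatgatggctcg
AARS1: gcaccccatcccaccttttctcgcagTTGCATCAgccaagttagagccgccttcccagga
IARS1: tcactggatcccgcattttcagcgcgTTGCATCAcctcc
In build GRCh38.p14 the ASNS stretch is chr7:97872443-97872502 on the minus strand, with the motif 68 to 61 bases before the gene start. The CHAC1 stretch is chr15:40953236-40953295 on the plus strand, with the motif 209 to 202 bases before the start. The ATF3 stretch is chr1:212565190-212565249 on the plus strand (191 to 184 bases before), that of AARS1 is chr16:70289660-70289719 on the minus strand (187 to 180) and that of IARS1 is chr9:92293698-92293736 on the minus strand (13 to 6). A match is a run of letters and does not show binding, and the 5 genes span the range of steps in Malme3M: 1.02 for ASNS, 1.13 for CHAC1, 0.47 for ATF3, 0.50 for AARS1 and 0.04 for IARS1.

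ATF4 itself had signals of 3051 in DMSO, 3864 at 250 nM and 5811 at 1000 nM in Malme3M, a step of 0.59. In SkMel-19 it had 2025 in DMSO, 4963 at 250 nM and 4700 at 1000 nM, a step of -0.08. On these single arrays ATF4 RNA in SkMel-19 stood about as high at the lower dose as at the higher. In Malme3M most of the difference from DMSO lay between the doses, with a step just past 1.5-fold. This contrast between the lines was not tested.

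Within the ATF4 list, the largest steps in Malme3M were those of CHAC1, DDIT3 and DDIT4. CHAC1, which breaks down glutathione, had 170 in DMSO, 403 at 250 nM and 894 at 1000 nM in Malme3M, and 73.5, 358 and 301 in SkMel-19. DDIT3, the stress factor CHOP, had 177, 263 and 584 in Malme3M and 219, 453 and 457 in SkMel-19. DDIT4, an inhibitor of mTORC1, had 2689, 918 and 1985 in Malme3M and 2055, 1647 and 1650 in SkMel-19. For CHAC1 and DDIT3 the Malme3M step followed an increase at 250 nM, whereas for DDIT4 it ran against a decrease.

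TRIB3, a pseudokinase that restrains ATF4, had the same shape as DDIT4 in Malme3M, with 853 in DMSO, 354 at 250 nM and 694 at 1000 nM, a step of 0.95. GDF15, a secreted stress cytokine listed with the p53 targets, had 8228, 560 and 1010 in Malme3M and 10460, 3392 and 2960 in SkMel-19. Its step was 0.84 in Malme3M and -0.20 in SkMel-19. SLC1A5, a glutamine transporter, had 910, 399 and 651 in Malme3M. DDIT4, TRIB3, GDF15 and SLC1A5 were below DMSO at both doses in Malme3M, and nearer to it at 1000 nM.

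Enzymes of amino acid synthesis rose next. ASNS, asparagine synthetase, had 899 in DMSO, 2020 at 250 nM and 4102 at 1000 nM in Malme3M, and 311, 1151 and 885 in SkMel-19. PSAT1, of serine synthesis, had 1841, 2810 and 4846 in Malme3M, a step of 0.78, against -0.10 in SkMel-19. PCK2, the mitochondrial phosphoenolpyruvate carboxykinase, had 423, 674 and 1180 in Malme3M, a step of 0.80, against -0.32 in SkMel-19. The remaining ones were MTHFD2, of mitochondrial folate metabolism, with a step of 0.61 in Malme3M and -0.27 in SkMel-19, and CBS, of cysteine synthesis, with 0.62 and -0.40. In SkMel-19 the signal of ASNS was thus lower at 1000 nM, although both treated arrays stood above DMSO.

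The 10 members that rose in Malme3M were all well above the floor at 250 nM, the lowest being CBS with 261. Those that did not reach 1.5-fold in Malme3M had steps from -0.04 for ATF5 to 0.55 for CEBPB, so the count depends on where the line is drawn. Over 7 settings of scaling, pseudocount and filter it was between 8 and 10 in Malme3M and 0 in SkMel-19. Among the 20 largest rises of Malme3M, 5 were ATF4 list members.

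Transporters and tRNA synthetases leaned the same way by less. Of 23 measured, 2 rose in Malme3M, SLC7A11, the cystine importer, with a step of 1.07 and SLC1A5 with 0.69, and none in SkMel-19. The list's median step was 0.23 in Malme3M and -0.13 in SkMel-19, with 20 of 23 above 0 in Malme3M and 2 of 23 in SkMel-19. SLC7A11 had 180 in DMSO, 478 at 250 nM and 1015 at 1000 nM in Malme3M, and 952, 2512 and 2237 in SkMel-19. Among the synthetases, AARS1 had 1645 in DMSO, 2485 at 250 nM and 3515 at 1000 nM in Malme3M, and SARS1 had 1225, 2000 and 2810.

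**Figure D4:**
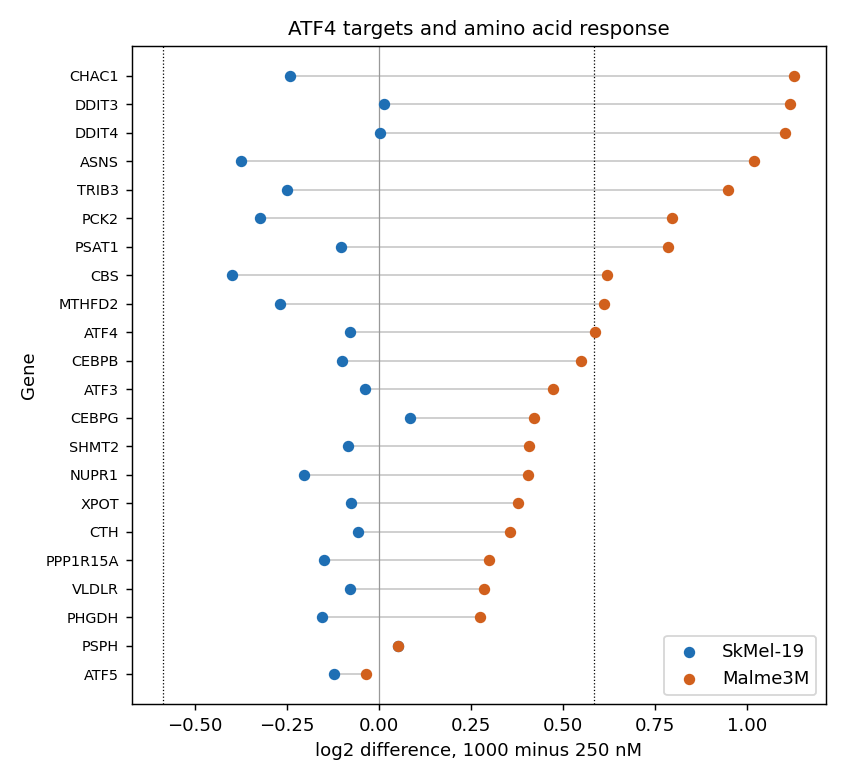
Step, 1000 minus 250 nM on the log2 scale, of the 22 measured ATF4 list members in SkMel-19 (blue) and Malme3M (orange), 1 array per dose and line, with dotted lines at 1.5-fold. The Malme3M points run from -0.04 for ATF5 to 1.13 for CHAC1, and those of SkMel-19 stay between -0.40 and 0.08.

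Seen against DMSO, the 2 lines had similar ATF4 list medians at 250 nM, 0.44 in SkMel-19 and 0.47 in Malme3M, and differed at 1000 nM, with 0.40 in SkMel-19 and 0.83 in Malme3M. The count of members at least 1.5-fold above DMSO was 10 at 250 nM and 8 at 1000 nM in SkMel-19, and 9 at 250 nM and 16 at 1000 nM in Malme3M. The doses share each line's DMSO array. In the lines with no 1000 nM array the 250 nM medians were 1.19 in SkMel-1, 0.09 in SkMel-5 and -0.10 in SkMel-28, so the list had no common response to 250 nM across the 5 lines. Of 21 measured chaperones and unfolded protein response genes, which share upstream sensors with ATF4, none rose in Malme3M (median step 0.02), a count near the background of 0.738%. HERPUD1 had 2632 at 1000 nM and 1866 at 250 nM there, a step of 0.49.

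Genes that rose in both lines were few and dim. EEF2KMT, a methyltransferase of elongation factor 2, had 260 at 1000 nM and 135 at 250 nM in SkMel-19, and 315 at 1000 nM and 131 at 250 nM in Malme3M. Its mean step was 1.04 ± 0.22 (SE of the limma fit on the 6 arrays of both lines). In DMSO it had 232 in SkMel-19 and 410 in Malme3M, so the 250 nM array was the lowest in each line. The probe set is of a kind that can match several transcripts. The others were PICK1, a synaptic scaffold, SERPINA3, a secreted protease inhibitor, and LONRF3, a ring finger protein, each with signals of at most 112 at either dose. SERPINA3 was under the floor at both doses in both lines, so its signals do not order the doses. PICK1 was above the floor only at 1000 nM in SkMel-19, and LONRF3 only at 1000 nM in Malme3M. WAS, an actin regulator of blood cells, was lower in both, at 121 and 54.9 at 1000 nM against 191 and 92.8 at 250 nM. The 54.9, in Malme3M, was under the floor.

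The 5 genes with the smallest limma p, all with an adjusted p of 0.999, were EEF2KMT, KAT2A, PFAS, BCL2L1 and FPGS. KAT2A, a histone acetyltransferase, had 285 at 1000 nM and 466 at 250 nM in SkMel-19, and 393 and 573 in Malme3M, a mean step of -0.61. PFAS, of purine synthesis, had 958 at 1000 nM and 693 at 250 nM in SkMel-19, and 751 and 550 in Malme3M, a mean step of 0.45. FPGS, which traps folates in cells, had 651 at 1000 nM and 467 at 250 nM in SkMel-19, and 679 and 267 in Malme3M. BCL2L1, encoding the survival protein BCL-XL, was lower, with 649 at 1000 nM and 880 at 250 nM in SkMel-19, and 595 and 822 in Malme3M. Its 2 dimmer probe sets were higher at 1000 nM in SkMel-19, with steps of 0.20 and 0.36, and had 0.01 and -0.27 in Malme3M.

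A larger set moved in opposite directions. In 20 genes the signal at 1000 nM was at least 1.5-fold higher in SkMel-19 and at least 1.5-fold lower in Malme3M. Of these 20, 6 had a signal under the floor on at least 1 of the 4 dose arrays. UBE2NL was the 1 gene with the reverse pattern. SLC39A7, a zinc transporter of the endoplasmic reticulum, had 1151 at 1000 nM and 310 at 250 nM in SkMel-19, and 390 at 1000 nM and 1565 at 250 nM in Malme3M. CTSZ, a lysosomal protease, had 3183 and 1204 in SkMel-19 and 281 and 1463 in Malme3M. PPP3R1, the regulatory subunit of calcineurin, had 644 and 235 in SkMel-19 and 194 and 685 in Malme3M. These 3 genes had the largest falls of all genes tested in Malme3M, and SLC39A7 had the largest rise in SkMel-19.

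The DMSO arrays place these 20 genes. In all 20 the 250 nM array was the lowest of the 3 SkMel-19 arrays and the 1000 nM array the lowest of the 3 Malme3M arrays. The order of the 2 doses was fixed by the choice of these genes, so only the place of DMSO is added here. The share of all genes with this order was not counted. For APP in SkMel-19 it rests on 3173.1 at 250 nM against 3175.2 in DMSO. For PPP3R1, DMSO stood at 702 in SkMel-19 and 695 in Malme3M, close to the higher dose in SkMel-19 and the lower dose in Malme3M. LMNB1, a nuclear lamina protein, had 1098 in DMSO, 642 at 250 nM and 1087 at 1000 nM in SkMel-19, and 793, 699 and 260 in Malme3M. In SkMel-19 the values of both genes were thus out of dose order, while in Malme3M the 1000 nM array alone stood well below DMSO. These examples do not stand for all 20. In 11 of the 20 the 1000 nM array was the highest of the 3 SkMel-19 arrays. The 250 nM array was the highest of the 3 Malme3M arrays in 11 of the 20. For CTSZ both held, with DMSO at 1639 in SkMel-19 and 568 in Malme3M. The second probe sets, where a gene had one, gave the same pair of signs in 12 of 14 cases over 8 genes. The 20 include the responders EPHA2, NR4A3 and SLC2A3, and NR4A3 is one of the genes whose second probe set had the reverse signs. SLC2A3, a glucose transporter, had steps of 0.16 and 0.18 in SkMel-19 and 0.25 and -0.11 in Malme3M on its 2 other probe sets, none past 1.5-fold. The part of single arrays in this pattern was not tested.

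**Figure D5:**
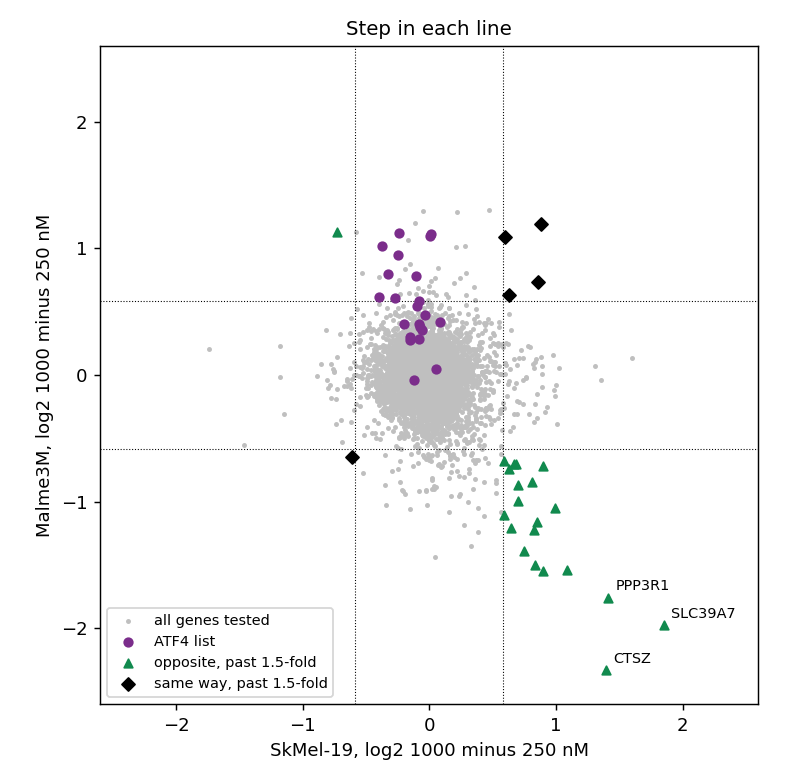
Step in Malme3M against step in SkMel-19, both 1000 minus 250 nM on the log2 scale, for 7178 genes (grey), the 22 ATF4 list members (purple circles), the 21 genes that moved opposite ways past 1.5-fold (green triangles) and the 5 that moved the same way (black diamonds). The ATF4 members lie above 0 on the Malme3M axis in 21 of 22 cases, and SLC39A7 and CTSZ lie at the lower right.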

How the data were processed

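Total RNA of 12 cultures was labelled with biotin and hybridised to 1-colour Affymetrix arrays. The authors deposited 1 intensity value per probe set and array, made with GCOS per the submitters' processing notes; the labels do not state how probes were summarised. The mean of each array without its outer 2% was 500.1, so the values share 1 scale.

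Values were used as log2(intensity + 12), 12 being the rounded 20th percentile. Each of 11963 named genes took the brightest of its probe sets on average, and the 7178 at or above the 40th percentile of mean level (6.61, a signal of 85.7) were kept. The doses were compared with limma 3.58.1 in R 4.3.3 on the 6 arrays of both lines, with cell line as a block (the pairing the labels give), 2 residual degrees of freedom and Benjamini-Hochberg adjustment. The DMSO arrays enter its error only. The fit was run on simulated data, with independent noise on each array and each added change equal in both lines. That run does not cover lines that respond differently to the drug. Each line's step was described by a 1.5-fold threshold. The number of arrays limits the precision.

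Members, lists and responders were chosen with earlier results of these data known. Named genes are the extremes of each line and of both, the 5 smallest p, 20 set genes and up to 4 per list. The gene lists number 34. Promoters are from RefSeq, GRCh38.p14.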

Additional observations from a re-analysis of the deposited data

Results flagged for a closer look

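Some lists and genes had steps of opposite sign in the 2 lines. None of these differences between the lines was tested, since each rests on 1 array per line and dose. Median steps were 0.51 in Malme3M and -0.10 in SkMel-19 for the ATF4 list, 0.23 in Malme3M and -0.13 in SkMel-19 for amino acid transporters and tRNA synthetases, and -0.16 in Malme3M and 0.14 in SkMel-19 for the ERK-driven ETS and growth outputs.

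Among single genes, SLC39A7 had a step of 1.85 in SkMel-19 and -1.97 in Malme3M. The zinc transporter was followed by CTSZ with 1.39 in SkMel-19 and -2.33 in Malme3M and by PPP3R1 with 1.41 and -1.76. AP1S1, of clathrin coat adaptors, had 1.09 in SkMel-19 and -1.54 in Malme3M, NR4A3 had 0.89 and -1.55, and TAF15, an RNA-binding protein, had 0.83 and -1.50. UBE2NL had -0.73 in SkMel-19 and 1.13 in Malme3M.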

How the results depend on the processing

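The limma count was 0 in all 16 other settings, including 0 with no replicate block and 0 without each array in turn, with 2 to 265 genes at an unadjusted p under 0.05 and smallest adjusted p between 0.997 and 1. The counts past 1.5-fold depend on low signals. Genes that rose in SkMel-19 numbered 80, against 43 with a pseudocount of 50, 559 with no filter, 20 with a filter at the 60th percentile, 50 with low signals raised to the filter level and 9 at 2-fold. Those that rose in Malme3M numbered 53, against 33, 498 and 17 in the first 3 of these settings and 15 at 2-fold. Those that fell in SkMel-19 numbered 41, against 14, 526, 10, 22 and 5 in the 5 settings in that order. Those that fell in Malme3M numbered 111, against 69, 547 and 41 in the first 3 and 24 at 2-fold. Genes that rose in both lines numbered 4, against 1, 64, 0, 1 and 0, and those that fell in both 1, against 0, 57, 0, 0 and 0, and 0 after quantile normalization. With no filter more dim genes are counted; the cause of the other shifts was not tested.

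The median step of the genes lowered in 3 other lines, -0.08 in Malme3M, was 0.00 with low signals raised. That of the raised genes in SkMel-19, 0.02, was 0.062 with a pseudocount of 50, 0.048 with no filter, -0.00062 with the stricter filter and -0.022 with responders taken at 1.5-fold on average. Of the recomputed steps of named genes, 1811 moved by less than the SD between the 2 lines, 202 by more, and 3 of those past 1.5-fold reversed, all on another probe set: NR4A3 at -0.69 in SkMel-19 and 0.59 in Malme3M, and HBEGF at 0.16 in SkMel-19.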
